A study of Mus musculus with 92 samples.

Results

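The genes that encode the subunits of the 26S proteasome were followed through 9 time points of muscle repair after a freeze injury. They were taken as the genes named Psma, Psmb, Psmc or Psmd with a number, which gave 39 of the 23811 genes in the deposited expression table: 8 α subunits, 7 constitutive β subunits, 3 immune β subunits, the thymic β subunit Psmb11, 6 ATPases and 14 non-ATPase subunits. In male C57BL/6J mice of 10 weeks the left tibialis anterior (TA), a muscle of the lower leg, was exposed and touched with a steel probe at the temperature of dry ice, and the right TA of the same mouse was left uninjured. The tested muscles are therefore freeze-injured left TA and the control muscles are uninjured right TA taken at the same time, so that every control muscle came from a mouse that carried an injury in the other leg and none came from an uninjured mouse. The 3 h group held 2 injured and 3 control muscles, the groups of 48 h and of day 7 held 3 injured and 4 control muscles each, the group of day 21 held 4 injured and 3 control muscles, and the groups of 10, 24 and 72 h and of days 14 and 28 held 5 of each.

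The proteasome degrades proteins that carry ubiquitin chains. Its core particle is a barrel of outer α rings, which gate the entrance, and inner β rings, of which the β1, β2 and β5 subunits cut the substrate. The regulatory particle caps the barrel: its ring of ATPases (Psmc genes) unfolds the substrate, and its non-ATPase subunits (Psmd genes) include those that bind and remove ubiquitin. Psmd5, Psmd9 and Psmd10 encode assembly chaperones of the base, and are counted here with the non-ATPase and regulatory genes. In cells exposed to interferon and in cells of the immune system, Psmb9 (β1i), Psmb10 (β2i) and Psmb8 (β5i) take the places of Psmb6 (β1), Psmb7 (β2) and Psmb5 (β5) in newly built core particles, which are then called immunoproteasomes and are known for making peptides for class I antigen presentation. In skeletal muscle the proteasome is known as a main route of protein breakdown during atrophy.

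Promoter windows of 300 bases, from 250 bases before to 50 bases after the annotated start of the gene, are shown for both genes with the largest injury differences, Psmb8 and Psmb9, for Psmb5, which Psmb8 replaces, and for Psmd11, which had the largest difference of the subunit genes at 10 h. They come from RefSeq on build GRCm38.p6: Psmb8 from chr17:34197945-34198244 on the plus strand, Psmb9 from chr17:34187281-34187580 on the minus strand, Psmb5 from chr14:54617946-54618245 on the minus strand and Psmd11 from chr11:80428365-80428664 on the plus strand. Each is written 5′ to 3′ along the gene, and capitals mark a match to a searched motif.
Psmb8: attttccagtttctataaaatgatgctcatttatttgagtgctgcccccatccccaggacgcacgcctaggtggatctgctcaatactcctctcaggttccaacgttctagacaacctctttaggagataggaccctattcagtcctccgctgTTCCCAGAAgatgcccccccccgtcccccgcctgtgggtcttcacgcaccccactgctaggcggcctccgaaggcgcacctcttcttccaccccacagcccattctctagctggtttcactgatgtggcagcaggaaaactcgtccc
Psmb9: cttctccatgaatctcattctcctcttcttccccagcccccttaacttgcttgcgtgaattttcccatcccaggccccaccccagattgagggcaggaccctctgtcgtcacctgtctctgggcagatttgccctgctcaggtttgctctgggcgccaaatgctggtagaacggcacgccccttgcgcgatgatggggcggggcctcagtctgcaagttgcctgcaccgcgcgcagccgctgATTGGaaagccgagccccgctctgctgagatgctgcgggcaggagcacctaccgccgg
Psmb5: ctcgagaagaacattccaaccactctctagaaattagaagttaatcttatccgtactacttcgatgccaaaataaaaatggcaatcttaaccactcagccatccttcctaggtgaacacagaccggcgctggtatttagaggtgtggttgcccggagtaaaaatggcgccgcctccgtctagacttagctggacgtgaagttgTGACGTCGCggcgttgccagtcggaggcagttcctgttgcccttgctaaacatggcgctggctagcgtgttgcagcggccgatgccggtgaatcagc
Psmd11: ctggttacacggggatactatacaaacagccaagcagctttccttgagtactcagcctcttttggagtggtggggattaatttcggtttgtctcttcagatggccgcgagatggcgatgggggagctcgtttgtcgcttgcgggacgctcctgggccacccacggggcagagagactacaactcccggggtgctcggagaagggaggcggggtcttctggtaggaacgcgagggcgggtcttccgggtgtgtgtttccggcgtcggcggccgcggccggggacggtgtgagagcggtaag
Among the 4 motifs searched on both strands, Psmb8 held the gamma interferon activation site TTCNNNGAA as TTCCCAGAA, 97 bases before the start, Psmb9 held a CCAAT box in the reverse direction (ATTGG), Psmb5 held the antioxidant response element core TGACNNNGC as TGACGTCGC, 47 bases before the start, and the Psmd11 window held none. A window was found for 32 of the 39 genes. TGACNNNGC lay in 5 of the 32 windows (15.6%), namely those of Psmb5, Psmb6, Psmc6, Psmd9 and Psmd12, against 14.0% of the 27025 genes with a window. TTCNNNGAA lay in 2 (6.25%, Psmb8 and Psmd2) against 9.55% of all genes, the interferon-stimulated response element in 3 (9.38%, Psmb3, Psmd4 and Psmd9) against 3.99%, and CCAAT in 13 (40.6%) against 41.1%. These are letter matches only, and none of them is a measured binding site.

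Expression was measured by strand-specific RNA-seq and is given in FPKM, fragments scaled to the length of the transcript and to the number of mapped fragments, so that levels can be compared between genes. The number of reads per library is unknown from these files, and no counting interval can be given. Of the 80 libraries with a column, 1 injured library of day 7 with only 334 genes above 0 and 1 control library without a time were left out, and the repeat libraries of 1 mouse at 24 h were averaged for each leg, which left 37 injured and 39 control muscles. The labelled tissue was checked by 8 muscle fibre markers such as Acta1 and Ckm, whose summed level was at least 23800 FPKM in the 72 h muscles. Both legs of animal 2 on day 7 stood apart, with FPKM sums of 828110 (injured) and 755535 (control) and with 2 (injured) and 3 (control) of the 8 fibre markers listed at 0. The injured leg of animal 3 on day 21 had 5 of them at 0, and the control leg of animal 2 at 72 h had 5611 genes above 1 FPKM, the fewest of all. Values without these 4 libraries, a choice made after seeing the data, stand beside the main results of the subunit genes at 72 h, day 7 and day 21. They are not given for the cell markers or for the lists of other genes.

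In the control muscles Psmb7 (β2) had the highest level of the subunit genes, 274 ± 46.9 FPKM (SD, n = 39), followed by the α subunit Psma6 at 147 FPKM, Psmb3 (β3) at 145 FPKM and Psmd8, a lid subunit, at 130 FPKM. Psmb6 (126 FPKM) and Psmb5 (119 FPKM) ranked among the first 7. The immune subunits stood at the other end: Psmb9 had 1.46 ± 0.87 FPKM, Psmb8 2.29 ± 1.02 FPKM and Psmb10 5.96 ± 2.31 FPKM (SD, n = 39 each). Psmd10, a base assembly chaperone also known as gankyrin, Psmd9 and Psmd5, which are base assembly chaperones too, had 5.36, 5.83 and 7.82 FPKM. The other 31 genes that passed the filter had control means between 29.9 FPKM (Psmd3) and 274 FPKM (Psmb7), so that the low levels were those of the immune subunits and the assembly chaperones. Psma8, an α subunit known from the testis, did not exceed 0.49 FPKM in any muscle and was at 0 in 28, and Psmb11, known from the thymic cortex, did not exceed 0.0173 FPKM and was at 0 in 44. Neither passed the filter (a mean of 1 FPKM or higher in any of the 18 groups), and the remaining 37 genes were tested with the 12099 genes that did. Psma4, Psma3, Psmb5 and Psmd1 overlap other rows of the table, and the strand-specific libraries limit, but do not remove, doubt about shared reads.

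The first question was when after injury the subunit genes differed between the injured and the control TA. On the FPKM as deposited, nearly all of them were higher in the injured muscle at 48 h and 72 h, by modest factors. That rise depended on the scaling of the libraries: after upper-quartile scaling the median log2 difference at 72 h was -0.17, against 0.16 for all genes tested. The 3 immune subunits were higher from 24 h to day 7 and by far the most at 72 h, but on day 7 their rise leaned on 1 mouse, animal 2. A difference was called where the Benjamini-Hochberg adjusted p of limma was under 0.05 and the change reached 2-fold. None of the 37 genes was called at 3 h, at 10 h or on days 14, 21 and 28. The rule called 2 genes higher at 24 h. It called 7 at 48 h, then 9 at 72 h, and 3 on day 7. None was called lower at any time. The share of all 12099 genes called higher by the same rule in order of time, from 3 h to day 28, was 1.69%, 11.8%, 17.6%, 33.1%, 50.2%, 21.6%, 2.89%, 0.00827% and 0.0496%, and the share called lower was 0.0579%, 0.438%, 0.661%, 1.56%, 0.612%, 1.95%, 0.0331%, 0% and 0.0331%. The subunit genes were thus called at about or below the rate of all genes at every time. With limma's unadjusted p under 0.05, no subunit gene was higher and 8 were lower at 3 h, 4 were higher at 10 h, 1 on day 14 and 1 on day 21, and 1 was lower on day 28. The share of all genes at that limit is not given here.

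**Figure D1:**
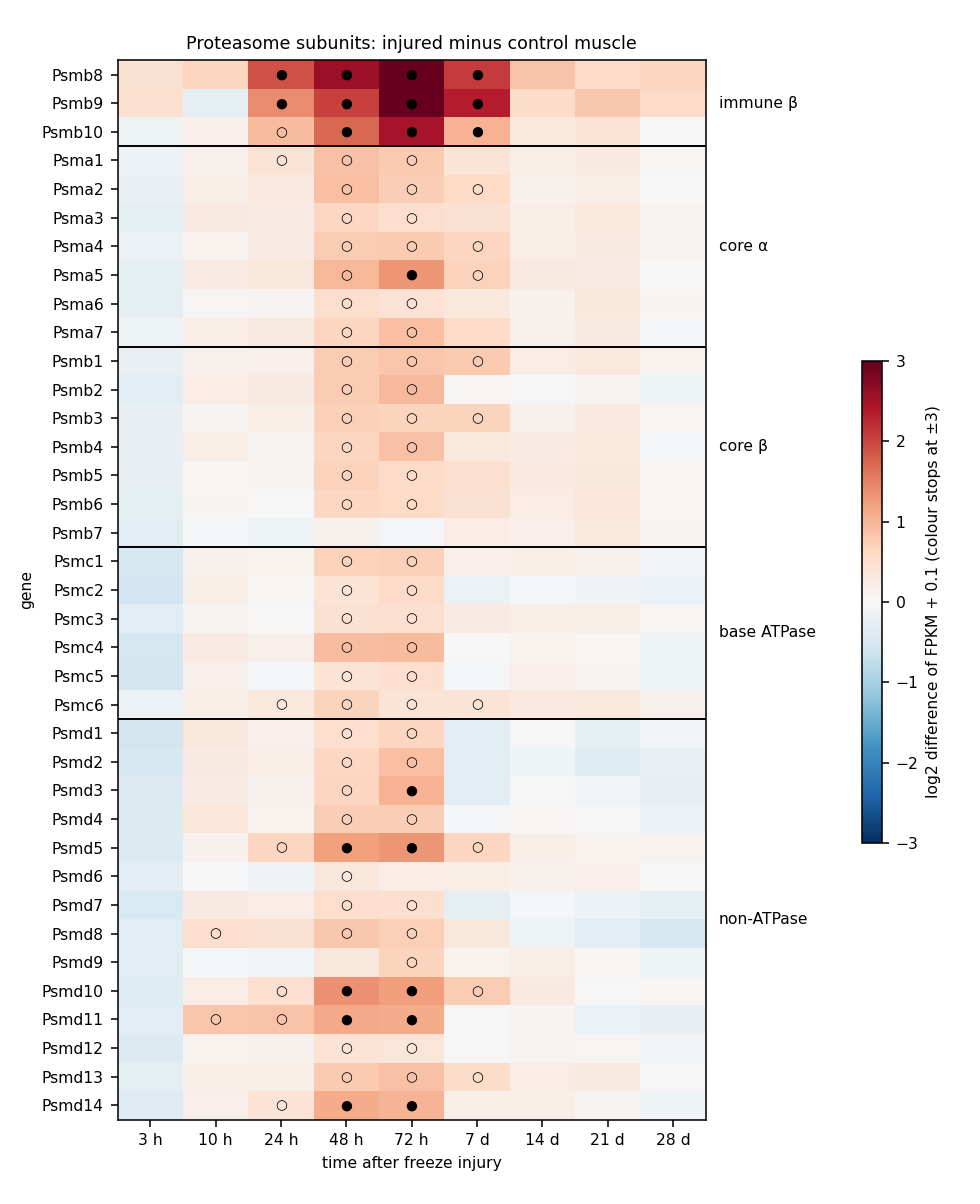
Log2 difference between injured and control muscle for the 37 tested subunit genes (vertical, grouped by role) at the 9 time points (horizontal). Filled circles mark an adjusted p under 0.05 with at least a 2-fold change and open circles an adjusted p under 0.05 alone. The circles gather at 48 h and 72 h, and the 3 immune subunits carry the darkest cells, up to 4.44 for Psmb8 at 72 h.

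By adjusted p alone, 2 subunit genes were higher at 10 h (19.2% of all genes tested), 9 at 24 h (31.3%), 35 at 48 h (49.6%), 35 at 72 h (70.9%) and 12 on day 7 (30.0%), and none was higher on day 14, where 3.32% of all genes were. None was lower at any time by limma's adjusted p in the main fit, against 0.0744%, 1.81%, 3.64%, 4.45%, 3.62%, 4.37%, 0.0579%, 0% and 0.0496% of all genes from 3 h to day 28. Without the 4 libraries that stood apart 7 were lower at 3 h, and 6 were higher at 10 h. With each time fitted alone, 17 of 36 tested subunit genes were lower at 3 h and 11 of 37 were higher at 10 h. Median differences were then -0.32 for the subunit genes and -0.32 for all genes at 3 h, and 0.17 and 0.18 at 10 h. The shares of all genes passing in these alternative fits are not given here. In the main fit the genes not higher by adjusted p were Psmb7 and Psmd9 at 48 h, and Psmb7 and Psmd6 at 72 h. By role, at 72 h, 7 of 7 α, 6 of 7 constitutive β, 3 of 3 immune β, 6 of 6 ATPase and 13 of 14 non-ATPase genes passed. The median log2 difference of the 37 genes was 0.70 at 48 h and 0.75 at 72 h, against 0.63 and 1.01 for all genes tested. Of the 34 genes outside the immune trio, 22 lay above the median of all genes at 48 h, and 5 did at 72 h. Without the 4 libraries 14 did at 72 h, where the medians became 0.58 for the subunit genes and 0.72 for all genes, and 6 subunit genes were called. The immune subunits lay between the 83.0 and the 95.8 percentile of all genes at 72 h, and between the 83.1 and the 94.1 percentile on day 21, when none was called. The difference was largest at 48 h for 16 of the 37 genes, at 72 h for 20, and on day 21 for Psmb7. Without the 4 libraries it was largest at 48 h for 24 genes, at 72 h for 12, and on day 7 for Psmb7 (0.25, against 0.19 on day 21).

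The height of these values depended on the scaling of the libraries. The median of all genes at 72 h was 1.01 on the FPKM as deposited, -0.28 after quantile normalization and 0.16 after upper-quartile scaling, and the median of the subunit genes was 0.75, 0.23 and -0.17. By adjusted p, 17 subunit genes were higher and 4 lower at 72 h after quantile normalization, and 6 higher and 13 lower after upper-quartile scaling. At 48 h they were 25 higher and 1 lower after quantile normalization, and 8 higher and 0 lower after upper-quartile scaling. The 48 h medians were then 0.50 and 0.14 for the subunit genes, and -0.18 and 0.10 for all genes. Under each of these scalings the 2-fold limit left 3 genes called at 48 h, and 3 at 72 h. The shares of all genes passing under these scalings are not given here, so these counts cannot be set against a general rate. The calls by adjusted p outside the immune subunits thus changed with the scaling: Psmb5 and Psmb6, higher by 0.57 and 0.61 at 72 h as deposited, were at -0.35 and -0.31 after upper-quartile scaling.

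**Figure D2:**
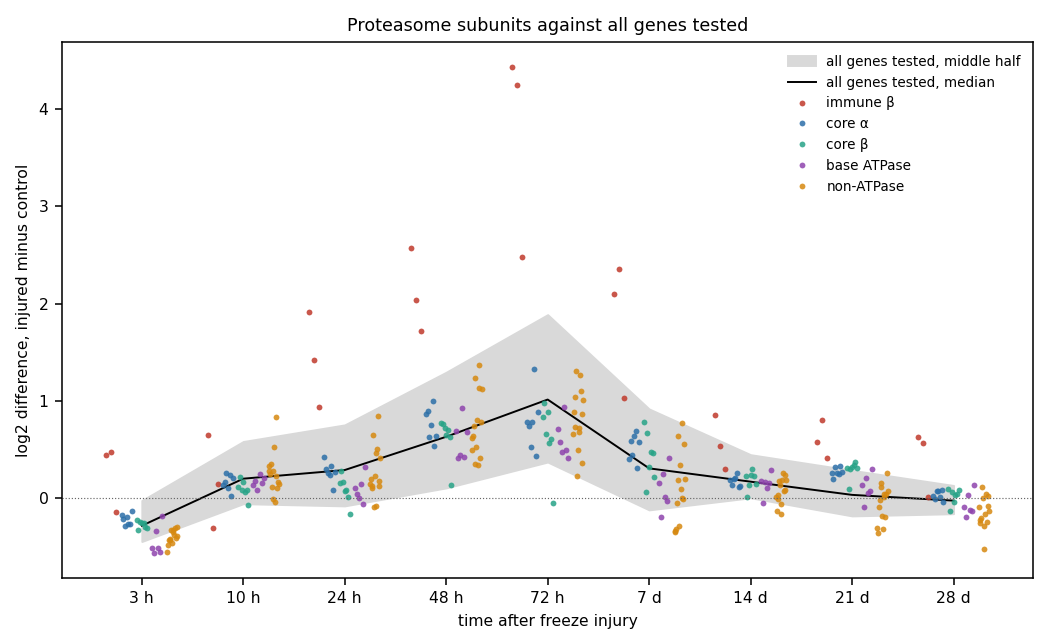
Log2 difference between injured and control muscle (vertical axis) by time after injury (horizontal axis). Each point is a subunit gene, coloured by role, the line is the median of all 12099 genes tested and the grey band runs between their lower and upper quartiles. Most subunit genes outside the immune trio lie inside the band, 5 of 34 above the line at 72 h (14 without the libraries that stood apart). The immune subunits stand above the band from 24 h to day 7, and again on day 21, when none was called.

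The immune subunits gave the largest differences. Psmb8 had 5.07, 6.86, 4.03, 7.90 and 23.9 FPKM in injured muscles at 24 h, against 1.34, 2.57, 1.78, 1.93 and 2.46 FPKM in control muscles, and the groups did not overlap. At 48 h it had 13.3, 26.7 and 11.1 FPKM in injured muscles and 3.06, 2.61, 2.36 and 2.32 FPKM in control muscles. At 72 h it had 16.4, 39.5, 69.3, 53.5 and 30.3 FPKM in injured muscles and 1.90, 1.17, 1.77, 1.91 and 1.54 FPKM in control muscles. The lowest injured muscle at 72 h was thus above every control muscle of any time, of which the highest had 7.19 FPKM. Psmb8 rose by a log2 difference of 1.91 ± 0.45 (SE) at 24 h, 2.57 ± 0.54 at 48 h and 4.44 ± 0.45 at 72 h (limma, adjusted p = 0.000488, 5.76e-05 and 1.88e-13). In the files (build mm9) the gene lies on chromosome 17 at 34335140 to 34338399.

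Psmb9, on the same chromosome at 34319044 to 34324275, had 9.75, 26.0, 44.9, 37.0 and 17.3 FPKM in injured muscles at 72 h, against 1.30, 0.996, 1.42, 0.963 and 1.09 FPKM in control muscles. Psmb10, on chromosome 8, had 16.1, 31.0, 46.6, 41.2 and 23.9 FPKM in injured muscles and 5.57, 4.26, 5.19, 6.02 and 5.34 FPKM in control muscles. In both genes animals 3 and 4 had the highest injured muscles and animal 1 the lowest, as for Psmb8, and injured and control muscles did not overlap. Psmb9 rose by 1.42 ± 0.46 at 24 h, 2.04 ± 0.56 at 48 h and 4.25 ± 0.46 at 72 h (limma, adjusted p = 0.0121, 0.0016 and 2.34e-12). Psmb10 rose by 0.94 ± 0.29, under the 2-fold limit, at 24 h, by 1.72 ± 0.36 at 48 h and by 2.48 ± 0.29 at 72 h (limma, adjusted p = 0.00918, 4.63e-05 and 4.44e-11). After quantile normalization the 72 h differences were 3.45 for Psmb8, 3.20 for Psmb9 and 1.62 for Psmb10, and all 3 still passed, whereas Psmb9 at 24 h did not (0.87, adjusted p = 0.0787). The early rise leaned on animal 5: without its injured muscle at 24 h, Psmb9 was at 1.05 (adjusted p = 0.102) and Psmb10 at 0.73 (adjusted p = 0.0726), and 1 gene, Psmb8, was called.

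**Figure D3:**
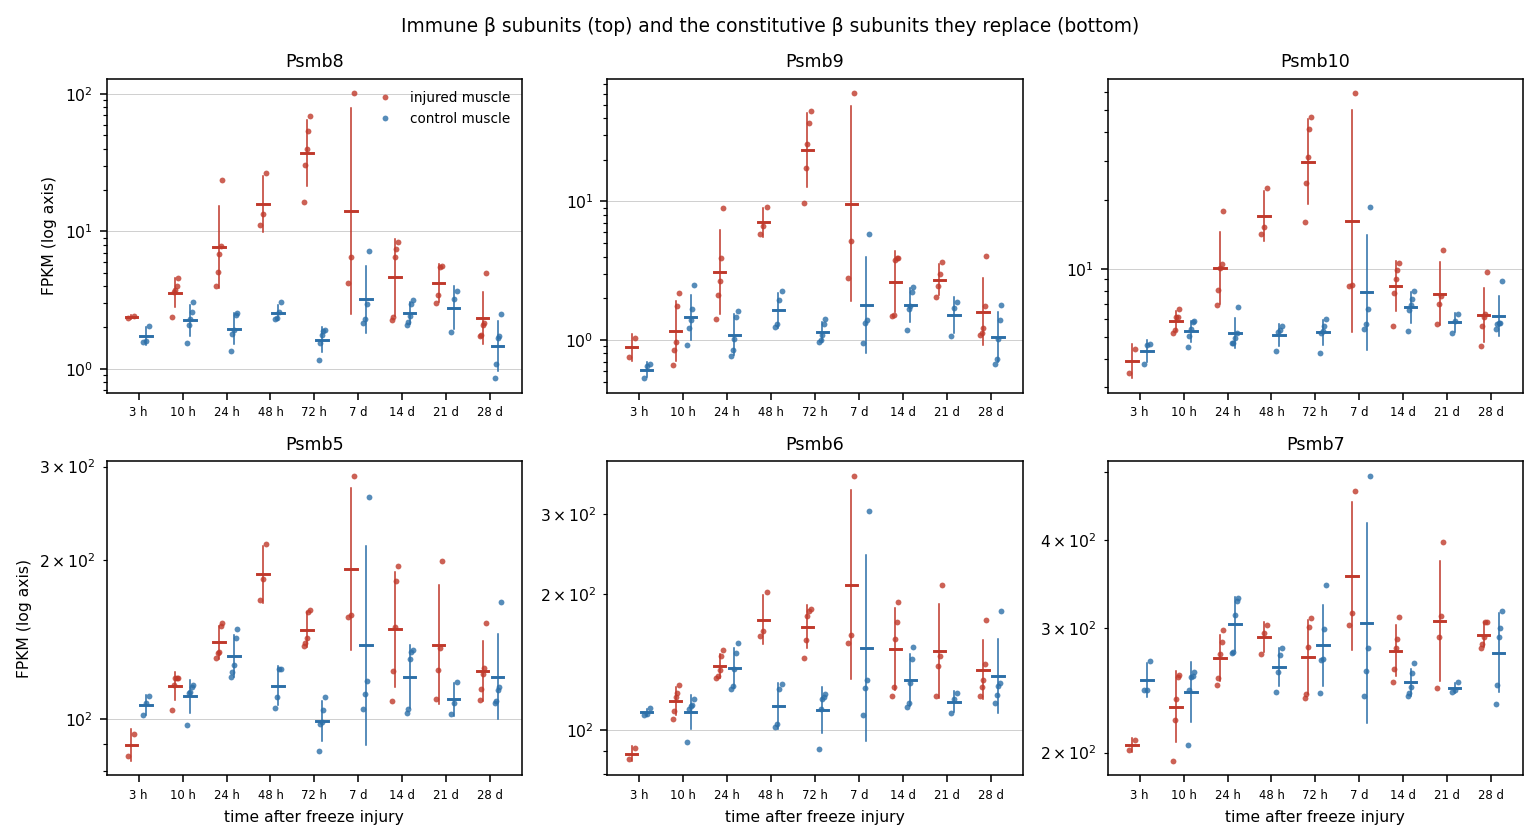
Level in FPKM (vertical axes, log scale) of Psmb8, Psmb9 and Psmb10 and of the constitutive subunits Psmb5, Psmb6 and Psmb7 by time after injury. Points are muscles, bars the mean and vertical lines 1 SD of the log2 values, injured left of control. The injured muscles of the 3 immune subunits clear the controls at 72 h, and on day 7 1 injured muscle, that of animal 2, lies far above the others.

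On day 7 the picture was uneven. Psmb8 had 102, 4.19 and 6.51 FPKM in injured muscles of animals 2, 3 and 4, against 7.19, 2.95, 2.16 and 2.29 FPKM in control muscles of animals 2 to 5, and animal 2 was the highest on both sides. Psmb9 had 60.4, 2.82 and 5.21 FPKM in injured and 5.80, 0.949, 1.40 and 1.33 FPKM in control muscles. Psmb10 had 59.5, 8.40 and 8.52 FPKM in injured and 18.6, 6.61, 5.43 and 5.73 FPKM in control muscles. In all 3 genes a single mouse was far above the others, and the other injured muscles of Psmb8 and Psmb9 were at most 6.51 FPKM. The log2 differences over all muscles were 2.10 ± 0.54 for Psmb8, 2.36 ± 0.56 for Psmb9 and 1.03 ± 0.36 for Psmb10 (limma, adjusted p = 0.00177, 0.000704 and 0.0195). Without both legs of animal 2, left out after seeing the data, Psmb9 alone remained called, at 1.59 (adjusted p = 0.0374), while Psmb8 was at 1.06 (adjusted p = 0.171) and Psmb10 at 0.51 (adjusted p = 0.303), and the genes that passed by adjusted p alone fell to 5, against 12 with that mouse. The lowest difference on day 7 was that of Psmd1, a scaffold subunit of the base, with 24.8, 38.7 and 40.9 FPKM in injured and 29.7, 42.7, 50.1 and 55.0 FPKM in control muscles (-0.35 ± 0.20, limma, adjusted p = 0.166). Leaving out the injured leg of animal 2 alone left no gene called, and leaving out its control leg alone gave 6.

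Markers of infiltrating cells were higher over the times at which the immune subunits were called, and also before and after them. The summed level of 6 leukocyte and myeloid markers (Ptprc, Itgam, Cd68, Csf1r, Lyz2 and Emr1) was 230 to 1258 FPKM in injured muscles and 11.4 to 44.4 FPKM in control muscles at 24 h. At 72 h it was 1397 to 5610 FPKM in injured and 10.7 to 53.3 FPKM in control muscles, and all 6 markers were called higher at each time from 24 h to day 7. At 10 h 4 of the 6 were called, with a median of 2.49, when no immune subunit was and Psmb9 was at -0.30, and 4 were called on day 14, when no subunit gene was. At 24 h the highest sum, 1258 FPKM, was that of the injured muscle of animal 5, which also had the highest Psmb8 level, and on day 7 animal 2 had 4301 FPKM against 274 and 226 FPKM in the other injured muscles. The sum of 6 T and NK cell markers was 1.07 to 3.90 FPKM in injured and 0 to 0.118 FPKM in control muscles at 72 h, with Cd3e at 0 in every control muscle, and 67.8 FPKM in the injured muscle of animal 2 on day 7. The 4 tested T and NK markers were called at 72 h and on day 7, 3 of them on day 14 and none at 24 h or 48 h (1 passed limma's adjusted p at 48 h), and 4 of 4 proliferation markers (Mki67, Top2a, Cdk1 and Ccnb1) from 24 h to day 14. On day 7 the T and NK sum was 1.62 and 6.44 FPKM in the other injured muscles. No control group reached a mean of 1 FPKM for any T and NK or proliferation marker. These markers thus entered the test only through injured groups where they were high, and the filter favoured their calls there. At 72 h 3 of 3 fibroblast and 1 of 3 endothelial markers were called higher, against 50.2% of all genes. The fibre marker sum was then 23800 to 65570 FPKM in injured and 59630 to 82520 FPKM in control muscles. None of the 8 fibre markers was called and 2 were lower by adjusted p alone, against 3.62% of all genes. The part of these cells in the subunit differences was not tested. In whole muscle, fewer cells of a type and less RNA per cell cannot be told apart.

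The constitutive partners changed far less. At 72 h Psmb5 had 137, 143, 160, 139 and 161 FPKM in injured muscles and 110, 87.2, 104, 99.1 and 98.2 FPKM in control muscles, a log2 difference of 0.57 ± 0.16 (limma, adjusted p = 0.00138). Psmb6 had 144, 183, 185, 158 and 178 FPKM in injured and 120, 90.7, 118, 111 and 117 FPKM in control muscles, a difference of 0.61 ± 0.17 (limma, adjusted p = 0.00152). Injured and control muscles did not overlap for either gene. Psmb7 had 282, 311, 242, 239 and 301 FPKM in injured and 299, 345, 271, 243 and 271 FPKM in control muscles, and these overlapped (-0.05 ± 0.13, limma, adjusted p = 0.71). Psmb7 had the lowest difference of all tested subunit genes at 24, 48 and 72 h (-0.16, 0.14 and -0.05), and was lower at 72 h after upper-quartile scaling (-0.97, adjusted p = 4.11e-06) and after quantile normalization (-0.35, adjusted p = 0.00388). Without the control muscle of animal 2 and the other libraries that stood apart, the 72 h differences were 0.52 for Psmb5, 0.54 for Psmb6 and 0.02 for Psmb7.

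The question of how far the immune form of a subunit stood against the form it replaces was put to each muscle by a ratio within the library, in which a factor common to all genes cancels except for the 0.1 FPKM added to both levels before the log2. The percentages are of the FPKM with nothing added. At 72 h Psmb8 amounted to 12% to 43.4% of the Psmb5 level in injured muscles (median 27.7%) and to 1.34% to 1.93% in control muscles. Psmb9 amounted to 6.77% to 24.2% of Psmb6 in injured muscles (median 14.2%) and 0.867% to 1.20% in control muscles, and Psmb10 to 5.69% to 19.2% of Psmb7 (median 9.97%) and 1.23% to 2.48%. Even at their height the immune transcripts thus stayed below those of the constitutive partners in every 72 h muscle. The log2 ratio was higher by 3.87 for Psmb8 to Psmb5, 3.65 for Psmb9 to Psmb6 and 2.53 for Psmb10 to Psmb7 (exact permutation test, both sides, p = 0.00794 each, the smallest that 5 against 5 muscles allow, adjusted p = 0.0429 over 27 tests). All ratio tests took the legs of 1 mouse as independent.

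At 24 h the log2 ratio was higher by 1.83 for Psmb8 to Psmb5 and by 1.10 for Psmb10 to Psmb7 (exact permutation test, adjusted p = 0.0429 each), and by 1.41 for Psmb9 to Psmb6 (exact permutation test, adjusted p = 0.0714). The 24 h calls were lost when any 1 of the 5 control muscles was left out (adjusted p of 0.0536 to 0.0857). At 48 h the ratios were higher by 1.88, 1.41 and 1.58 with no overlap between the groups, but the smallest p that 3 against 4 muscles allow is 0.0286 (exact permutation test, adjusted p = 0.0771 each). On day 7 they were higher by 1.63, 1.90 and 0.81, with adjusted p of 0.119 or more (exact permutation test), and without both legs of animal 2 by 0.57, 1.19 and 0.26. At 10 h and on days 14, 21 and 28 no ratio passed, with adjusted p of 0.0771 or more (exact permutation test). On day 21 Psmb9 to Psmb6 was higher by 0.43 without overlap, at the smallest p that 4 against 3 muscles allow (exact permutation test, p = 0.0286). At 3 h no ratio could pass, because the smallest p that 2 against 3 muscles allow is 0.1. There Psmb8 to Psmb5 was higher by 0.70 and Psmb9 to Psmb6 by 0.77 without overlap, and Psmb10 to Psmb7 by 0.16 with overlap.

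**Figure D4:**
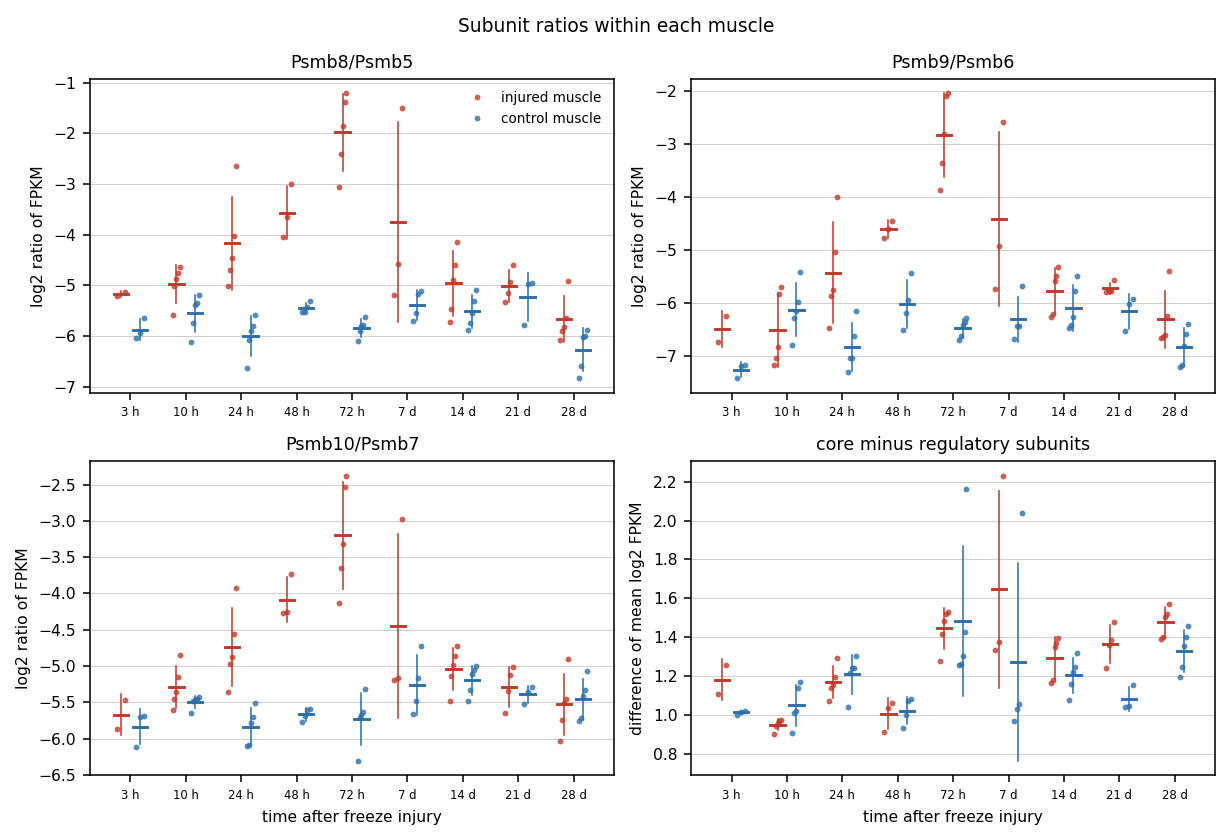
Log2 ratio of each immune subunit to the constitutive subunit it replaces, and mean log2 level of 14 core minus 20 regulatory genes (vertical axes), by time after injury. Points are muscles, bars means and lines 1 SD, injured left of control. All 3 ratios separate at 48 h and at 72 h, at 72 h by 3.87, 3.65 and 2.53. Psmb8 to Psmb5 also separates at 3 h and 24 h, Psmb9 to Psmb6 at 3 h and on day 21, and Psmb10 to Psmb7 at 24 h. The core minus regulatory value separates at 3 h and on day 21.

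Among the regulatory particle genes, Psmd11, a lid subunit (Rpn6) that touches the core particle, was already higher at 10 h. It had 70.7, 50.5, 70.8, 65.8 and 55.6 FPKM in injured muscles, against 35.8, 33.8, 39.6, 32.0 and 33.3 FPKM in control muscles at that time. The groups did not overlap, and the injured leg was the higher in 5 of 5 mice. The difference was 0.83 ± 0.15 at 10 h, 0.84 ± 0.15 by 24 h, 1.14 ± 0.18 by 48 h and 1.11 ± 0.15 by 72 h (limma, adjusted p = 1.24e-05, 5.18e-06, 2.84e-07 and 1.32e-09). It stayed past the threshold at 10 h after quantile normalization (0.67) and upper-quartile scaling (0.58), but not at 72 h after upper-quartile scaling (0.19, adjusted p = 0.171). Psmd8, another lid subunit, was the only other gene past the adjusted p at 10 h. It had 237, 135, 146, 144 and 154 FPKM in injured and 107, 116, 121, 90.2 and 120 FPKM in control muscles (0.53 ± 0.19, limma, adjusted p = 0.0409), but it did not pass after upper-quartile scaling (0.28, adjusted p = 0.204), with no filter on low values (adjusted p = 0.0624) or without any 1 of 7 of the 10 muscles (adjusted p of 0.0502 to 0.2, the last without injured animal 1, at 0.39).

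The non-ATPase genes called at 48 h were Psmd11, Psmd14, Psmd5 and Psmd10. Psmd14 (Rpn11), which cuts the ubiquitin chain off the substrate, had 62.8, 87.5 and 71.9 FPKM in injured and 35.5, 33.0, 34.3 and 32.0 FPKM in control muscles (1.12 ± 0.15, limma, adjusted p = 3.73e-09). Psmd5 had 16.8, 24.6 and 16.7 FPKM in injured and 8.38, 7.34, 8.13 and 8.19 FPKM in control muscles (1.24 ± 0.19, limma, adjusted p = 1.03e-07). Psmd10 had 11, 18.7 and 12.3 FPKM in injured and 5.22, 5.44, 5.57 and 4.70 FPKM in control muscles (1.37 ± 0.22, limma, adjusted p = 4.6e-07). In each gene the injured muscle of animal 4 was the highest, and no injured muscle overlapped a control muscle. Psmd5 and Psmd10 act in building the base of the regulatory particle, whereas their fellow chaperone Psmd9 was at 0.34 ± 0.20 (limma, adjusted p = 0.138).

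**Figure D5:**
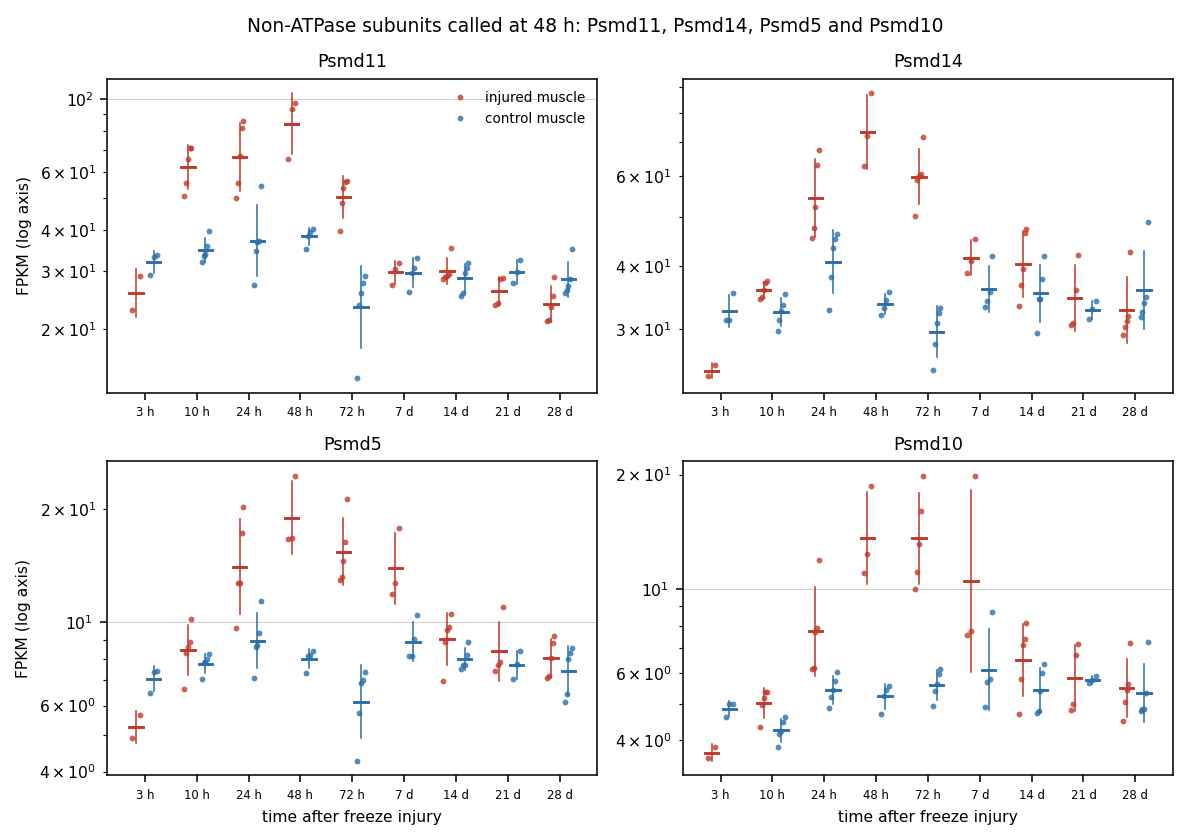
Level in FPKM (vertical axes, log scale) of Psmd11, Psmd14, Psmd5 and Psmd10 by time after injury. Points are muscles, bars the mean and lines 1 SD of the log2 values, injured left of control. Psmd11 is apart from the controls by 10 h (50.5 to 70.8 against 32.0 to 39.6 FPKM), and all 4 genes are at 48 h.

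At 72 h the genes called outside the immune trio were Psma5, Psmd3, Psmd5, Psmd10, Psmd11 and Psmd14. Psma5, an α ring subunit, had 56.1, 73.0, 104, 81.1 and 71.7 FPKM in injured and 34.4, 23.3, 35.3, 30.0 and 29.2 FPKM in control muscles (1.32 ± 0.20, limma, adjusted p = 3.04e-08), and stayed past the adjusted p after quantile normalization (0.71). Psmd3, a lid subunit, had 27.5, 32.8, 38.1, 30.5 and 39.1 FPKM in injured and 20.3, 4.37, 24.9, 21.8 and 22.3 FPKM in control muscles (1.04 ± 0.22, limma, adjusted p = 3.13e-05). Its lowest control muscle was that of animal 2, the library with few genes detected. Without that control muscle Psmd3 was at 0.58 (limma, adjusted p = 0.000811), under 2-fold, and 6 subunit genes were called at 72 h, against 9 with it. Psmd11 (0.93) and Psmd14 (0.95) were the others under 2-fold without the 4 libraries that stood apart. Psmd6, a lid subunit, overlapped between the groups, with 89.9 to 117 FPKM in injured and 79.2 to 97.9 FPKM in control muscles (0.22 ± 0.12, limma, adjusted p = 0.0865, or 0.0458 with the animal as replicate block). The 6 ATPases passed the adjusted p at 48 h and 72 h without reaching 2-fold, with log2 differences of 0.42 to 0.93 at 48 h and 0.42 to 0.94 at 72 h, Psmc4 having the largest each time.

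Across the 37 genes, injured and control muscles did not overlap for 36 genes at 48 h, all of them higher in the injured muscle, and for 31 at 72 h, likewise all higher, against 60.4% and 57.0% of all genes higher and 10.2% and 1.15% lower. At 10 h 9 genes were higher without overlap, and at 24 h 3 were (Psmb8, Psmb10 and Psmd10), against 24.2% and 21.1% of all genes, and none was lower, against 2.70% and 2.96%. On day 7, Psmc6, Psmd5 and Psmd13 lay higher and Psmd7 lower without overlap (23.2% and 2.66% of all genes), and on day 21 Psma1, Psmb1, Psmb9 and Psmc6 lay higher and Psmd2 lower (6.33% and 8.40%). Without animal 2, day 7 left 2 injured against 3 control muscles, and 26 genes then lay higher and 5 lower (41.0% and 15.8% of all genes). Without the injured muscle of animal 3, 4 lay higher and 6 lower on day 21 (7.07% and 10.7%), and the median of the 37 genes that day was 0.12, against 0.20 with it. At 3 h, with 2 against 3 muscles, 34 genes lay lower without overlap and 2 higher (Psmb8 and Psmb9), against 50.7% and 11.4% of all genes, and the median difference was -0.31 for the subunit genes and -0.28 for all genes. On days 14 and 28 the groups overlapped for every subunit gene, against 2.14% and 1.07% of all genes higher and 0.215% and 2.07% lower. Psmd8 had the lowest difference on day 28, with 84.4, 101, 91.5, 79.7 and 119 FPKM in injured and 137, 105, 116, 142 and 193 FPKM in control muscles (-0.53, limma, adjusted p = 1).

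Whether the injury difference itself changed with time was tested by interaction terms. Between 24 h and 72 h it grew for 21 of the 37 genes and shrank for none (limma, adjusted p under 0.05), against 42.1% and 0.405% of all genes, with changes of 2.52 for Psmb8, 2.83 for Psmb9 and 1.53 for Psmb10. Between 72 h and day 14 it shrank for 24 genes, against 54.4% of all genes, and grew for none, against 1.66%, with changes of -3.58 for Psmb8, -3.71 for Psmb9 and -2.17 for Psmb10. Psmb7 was at 0.20 in this contrast, the only positive value. After quantile normalization 5 genes grew between 24 h and 72 h, and 10 shrank and 2 grew between 72 h and day 14. After upper-quartile scaling 2 grew and 2 shrank, and then 3 shrank and 6 grew. Leaving out the control muscle of animal 2 at 72 h left 12 genes that grew between 24 h and 72 h, while without the 4 libraries 25 grew and then 27 shrank. No share of all genes is given for these alternatives. In the control muscles alone, none of the 37 genes differed between the early (3, 10 and 24 h) and the late times (days 14, 21 and 28) by the call rule, against 0.628% of all genes higher and 0.0744% lower, while 5 were higher early at an unadjusted limma p under 0.05.

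The core and regulatory genes parted at some times, a pattern chosen after seeing the data and given without a test. The mean log2 level of 14 core genes minus that of 20 regulatory genes was 1.24 to 1.48 in injured muscles on day 21 and 1.04 to 1.15 in control muscles, and 1.24 to 1.39 in injured muscles without animal 3. At 3 h it was 1.26 and 1.11 in injured muscles and 1.00 to 1.02 in control muscles. On day 7 it was 1.37 and 1.33 in the injured muscles of animals 3 and 4 and 0.971 to 1.05 in the control muscles of animals 3 to 5, with animal 2 at 2.23 (injured) and 2.04 (control). At 72 h the groups overlapped, and the control muscle of animal 2 was highest at 2.16. The median log2 difference was 0.47 for core and 0.05 for regulatory genes on day 7, and 0.31 and 0.05 on day 21. Without the libraries that stood apart it was 0.40 and 0.04 on day 7, and 0.16 and -0.09 on day 21. Core genes have shorter transcripts, with a median of 1101 bases against 1802 bases for the regulatory genes, and genes of all kinds in the same length ranges had medians of 0.56 and 0.36 on day 7 and 0.28 and 0.12 on day 21. The part of transcript length in the pattern was not tested.

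Genes that work with the proteasome were set beside it, by lists of 5 to 10 genes. The values of all these lists come from the main fit on the FPKM as deposited. None is given under another scaling or without the 4 libraries that stood apart. At 72 h, 3 of the 5 activators and inhibitor genes were called higher, where 50.2% of all genes were: Psme1 and Psme2, the interferon-inducible cap PA28αβ, by 1.87 ± 0.26 and 2.10 ± 0.28, and the inhibitor Psmf1 by 1.07 ± 0.22 (limma, adjusted p = 2.31e-09, 1.61e-09 and 1.2e-05). Psme1 had 69.9 ± 29.2 FPKM in injured and 17.7 ± 1.44 FPKM in control muscles (SD, n = 5 each). Psme4, the nuclear activator PA200, was at -0.24 ± 0.21 (limma, adjusted p = 0.315). Of 5 tested assembly chaperones, 5 passed the adjusted p at both 48 h and 72 h, as 49.6% and 70.9% of all genes did, and Psmg3 and Psmg4, at 1.07 and 1.48 at 72 h, reached 2-fold. Pomp, which helps the β rings to mature, was at 0.76 ± 0.17 at 72 h. Of the 6 associated regulatory proteins, 5 passed the adjusted p at 72 h (70.9% of all genes), and Txnl1 (1.08) and the deubiquitinase Usp14 (1.10) reached 2-fold. Calls this near the 2-fold limit, also those of Psmf1 and Psmg3, may depend on the libraries that stood apart.

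All 8 class I antigen presentation genes were called higher at 72 h, with a median of 3.42, and 5 of 8 were called at 24 h, 6 at 48 h and 5 on day 7, against 50.2%, 17.6%, 33.1% and 21.6% of all genes. Tap1, a subunit of the transporter that carries peptides into the endoplasmic reticulum, had 12.5 ± 6.13 FPKM in injured and 0.326 ± 0.168 FPKM in control muscles at 72 h (SD, n = 5 each), a difference of 4.88 ± 0.39 (limma, adjusted p = 8.16e-17). Its control mean at 72 h was under the limit of the filter, which favours calls of genes that reach it only in injured groups. How many of the 8 genes entered the test that way is not given here. B2m, the light chain of class I molecules, had 728 ± 355 FPKM in injured and 57.8 ± 5.83 FPKM in control muscles at 72 h (SD, n = 5 each). The regulators Irf1 and Nlrc5 were higher by 3.40 and 4.17 at 72 h. The Psmb8 and Psmb9 differences at 72 h, 4.44 and 4.25, thus lay within the range of these genes, 1.43 to 4.88.

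Among 10 genes of transcription and shuttling, the rule called 2 higher at 10 h and 4 by 72 h, where it called 11.8% and 50.2% of all genes. The early ones were Nfe2l2, a transcription factor of the antioxidant response, by 1.36 ± 0.29 (limma, adjusted p = 0.000294), with 30.7 ± 8.28 FPKM in injured and 11.7 ± 2.23 FPKM in control muscles (SD, n = 5 each), and Ddi2, the protease that activates the proteasome gene activator Nfe2l1, by 1.34 ± 0.49 (limma, adjusted p = 0.0383). Nfe2l1 itself was at 0.07 ± 0.35 at 10 h (limma, adjusted p = 0.932). With both legs of animal 2 included, Ddi2 was called lower on day 7 (-1.50 ± 0.59, limma, adjusted p = 0.0402), against 1.95% of all genes. Of the 5 ubiquitin and E1 genes, Rps27a (1.54) and the ubiquitin-activating enzyme Uba1 (1.45) were called at 72 h, against 50.2% of all genes. At 10 h 2 of the 5 passed the adjusted p, the polyubiquitin gene Ubb (0.92) among them, against 19.2% of all genes. Of the 5 muscle wasting ligases, Trim63 (MuRF1) and Fbxo30 were called at 10 h, against 11.8% of all genes, by 1.94 ± 0.40 and 1.15 ± 0.21 (limma, adjusted p = 0.000151 and 2.73e-05), and Fbxo32 (atrogin-1) was at 0.55 ± 0.43 (limma, adjusted p = 0.412). Trim63 had 380 ± 148 FPKM in injured and 96.3 ± 32.0 FPKM in control muscles at 10 h (SD, n = 5 each), at a time when Psmd11 and Psmd8 were the subunit genes past the threshold.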

How the data were processed

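Strand-specific, poly(A)-selected RNA-seq libraries of mouse TA muscle were aligned by the authors to mm9 with TopHat, and the authors deposited FPKM per gene and per isoform from Cufflinks and Cuffdiff (versions of the aligner not given in the sources used here). Whether a scaling between libraries is included in the FPKM is not stated, and depth is unknown. The deposited isoform table lists each of the 39 genes once, and was not tested. Groups came from the sample labels, 12 of whose 92 libraries were not analysed here.

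FPKM values were taken as log2(FPKM + 0.1), so that fold changes of low genes are understated, for the 12099 genes whose mean was 1 FPKM or higher in any of 18 groups. One model over 76 muscles (limma 3.58.1 in R 4.3.3, eBayes with trend, 58 residual degrees of freedom) gave each comparison, adjusted by Benjamini-Hochberg over all genes, and was tested on simulated data. A call needed an adjusted p under 0.05 and 2-fold, or the adjusted p alone for interactions. Ratios were compared by exact permutation tests over muscles (SciPy 1.17.1). Each animal gives both legs, so legs of 1 animal are pairs: their deviations from group means had correlations of -0.281 to 0.673, with 20 of 36 pairs over 0.1, and a fit with the animal as block (consensus correlation 0.214) was an alternative. Other alternatives were pseudocount 1, other filters, quantile and upper-quartile scaling, each time alone, the poor injured library of day 7 kept, and each muscle left out. The limma p-values rest on a spread between muscles within groups that is pooled over all 18 groups. Muscles that stand apart in 1 group can therefore widen the spread used at every time. The permutation tests use only the muscles of the time tested. Within a group each muscle came from a separate animal. The main fit and the permutation tests treated the 2 legs of an animal as independent, and no paired test of the ratios was run.

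All subunit genes could be named, and were shown in full if they were an immune subunit or its partner, the largest or smallest difference at a time with a call, or the highest or lowest in control muscle. Psmd8, Psmd14, Psmd5, Psmd10, Psma5 and Psmd3, and the promoter windows printed, were singled out after their values were seen. The members and lists were chosen with earlier results of these data known. Values of some genes in the lists are not reported here.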

Additional observations from a re-analysis of the deposited data

Results flagged for a closer look

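In 14 of the 91 groups of 4 to 10 muscles examined for the 3 immune subunits, the 3 they replace and Psmd11, 1 muscle lay far from the rest. The rule marks about 1 group in 20 by chance among independent groups. These genes were read in the same muscles, so 1 library can be marked several times and the 14 cannot be set against that rate. Animal 2 on day 7 was the high control muscle for Psmb10 (18.6 FPKM, others 5.43 to 6.61), Psmb5 (263.0 FPKM) and Psmb6 (305.0 FPKM). Animal 5 on day 28 was the high control muscle for Psmb10 (8.83 FPKM), Psmb5 (166.0 FPKM) and Psmb6 (183.0 FPKM), and the high injured muscle for Psmb8 (4.97 FPKM, others 1.73 to 2.17). Animal 4 at 10 h was the low control muscle for Psmb5 (97.5 FPKM), Psmb6 (94.0 FPKM) and Psmb7 (205.0 FPKM), and animal 2 at 72 h for Psmb6 (90.7 FPKM) and Psmd11 (14.1 FPKM). The injured muscle of animal 3 at 10 h was low for Psmb5 (104.0 FPKM), and that of animal 1 on day 14 was high for Psmd11 (35.1 FPKM). Constitutive subunit genes as a group lay 0.39 (injured) and 0.45 (control) above their group means on the log2 scale in animal 5 on day 28, and 0.62 and 0.65 above in animal 2 on day 7.

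The injury difference changed between time points by the interaction test. It was higher at 72 h than at 24 h for 21 subunit genes, by 2.52 for Psmb8, 2.83 for Psmb9 and 1.53 for Psmb10 (limma, adjusted p = 0.00153, 0.000655 and 0.00315), and lower on day 14 than at 72 h for 24, with changes of -3.58, -3.71 and -2.17 for Psmb8, Psmb9 and Psmb10 (limma, adjusted p = 4.63e-06, 4.43e-06 and 1.88e-05).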

How the results depend on the processing

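With the animal as replicate block Psma5 at 48 h, just short of 2-fold without it, was called, Psmd6 passed the adjusted p at 72 h (0.0458), no call of a named gene was lost, and the fit gave 2 (24 h), 8 (48 h), 9 (72 h) and 3 (day 7) genes called and 25 and 27 for the interactions. Without the fold limit, 2 (10 h), 9 (24 h), 35 (48 h), 35 (72 h) and 12 (day 7) genes were higher. Quantile normalization gave 1 call at 24 h and 3 each at 48 h and 72 h, with 5 genes higher at 72 h than 24 h and 10 lower and 2 higher on day 14 than at 72 h. Upper-quartile scaling gave 3 each at 48 h and 72 h, with 2 higher and 2 lower and then 3 lower and 6 higher, and turned Psmb5 (-0.35) and Psmb6 (-0.31) at 72 h. With the poor injured library of animal 5 on day 7 kept, 1 (24 h), 2 (48 h), 5 (72 h) and 0 (day 7) genes were called higher by limma, 30 were lower on day 7, where Psmb10 was at -0.80, and the interactions gave 1 and 3. On day 7, 0 genes were called with each time fitted alone, 1 without both legs of animal 2 and 1 without the 4 libraries that stood apart, both choices made after seeing the data. Leaving out 1 muscle gave 1 to 3 calls at 24 h (1 without injured animal 5), 6 to 8 at 48 h, 6 to 12 at 72 h, 0 to 6 on day 7 (0 without injured animal 2, 5 without injured animal 3, 6 without control animal 2), and 12 to 23 and 20 to 26 for the interactions (12 without control animal 2 of 72 h). It gave 24 h log2 ratios of 1.45 to 2.04 (Psmb8 to Psmb5), 1.05 to 1.67 (Psmb9 to Psmb6, past the threshold without injured animal 3) and 0.90 to 1.25 (Psmb10 to Psmb7), and turned ratios that had not passed, in the ranges -0.035 to 0.36 (Psmb10 to Psmb7, 3 h), -0.040 to 0.37 (Psmb8 to Psmb5, day 21) and -0.23 to 0.057 (Psmb10 to Psmb7, day 28, also 0.027). The causes were not tested. Shares of all genes passing under these other scalings and fits are not given. Depth is unknown, so limits by depth cannot be given.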
